A study of Mus musculus with 2 samples.

Results

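MicroRNA (miRNA) genes of the mouse autosomes were examined for trimethylation of lysine 27 of histone H3 (H3K27me3). Members are the genes of type miRNA on the 19 autosomes in GENCODE mouse release 21, with a few named loci left out, which gives 2051 of 51226 annotated autosomal genes. A miRNA gene counted as marked if a window of 2001 bp, reaching 1 kb to either side of its annotated 5' end, overlapped an H3K27me3 peak by at least 1 bp in both replicates. The annotated 5' end is that of the hairpin, and the primary transcript of a miRNA can start many kilobases upstream. Chromatin immunoprecipitation and sequencing was done with an antibody to H3K27me3 in E14TG2a.4, a male embryonic stem cell line of mouse strain 129/Ola, which the labels date to embryonic day 3.5. The series has a single group, with biological replicates 1 and 2 and no treatment, mutant or other cell type, so no difference between conditions could be tested. Both replicates carry the same donor label. All positions are on build mm10 (GRCm38).

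MiRNAs are short RNAs cut from hairpin transcripts, and they pair with messenger RNAs through the seed, the bases near their 5' end, to lower the stability and translation of those messages. A hairpin can lie in an intron or exon of a host gene and be made with its transcript, or can have a transcript of its own, and many miRNAs have several gene copies that give the same or nearly the same mature RNA. H3K27me3 is deposited by Polycomb repressive complex 2 and in embryonic stem cells is known from the genes of developmental regulators, many of which are kept inactive until differentiation.

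The mature sequences below are those on which the description of families turns: sets in which every copy was marked, and sets in which copies with the same seed differed. They come from the RefSeq entries on GRCm38.p6, which held a mature sequence for 923 of the 2051 members and for 120 of the marked ones. Each is written 5' to 3' with the seed, bases 2 to 8, in capitals. The first group holds the families marked at every copy whose copies share a seed, and the pair miR-132 and miR-212.

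miR-10a-5p: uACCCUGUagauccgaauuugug
miR-10b-5p: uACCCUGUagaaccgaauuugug
miR-196a-5p: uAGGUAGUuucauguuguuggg
miR-196b-5p: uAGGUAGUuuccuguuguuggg
miR-193a-3p: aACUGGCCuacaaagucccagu
miR-193b-3p: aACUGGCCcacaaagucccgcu
miR-208a-3p: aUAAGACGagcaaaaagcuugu
miR-208b-3p: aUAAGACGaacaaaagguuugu
miR-132-3p: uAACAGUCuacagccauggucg
miR-212-3p: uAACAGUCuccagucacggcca

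MiR-132 and miR-212 have different numbers but the same seed, and their genes lie side by side. The next group holds seeds that were shared by marked and unmarked genes. MiR-7a-5p, miR-129-5p and miR-219a-5p are each encoded by a marked and an unmarked gene. The seed of miR-34 and miR-449 was found at marked genes (Mir34b, Mir449c) and at genes that were not marked (Mir34a, Mir449a).

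miR-7a-5p: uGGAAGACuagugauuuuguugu
miR-7b-5p: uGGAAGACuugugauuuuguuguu
miR-129-5p: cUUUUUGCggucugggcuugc
miR-219a-5p: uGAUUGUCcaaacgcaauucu
miR-34a-5p: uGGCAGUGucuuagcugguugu
miR-34b-5p: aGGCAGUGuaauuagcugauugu
miR-449a-5p: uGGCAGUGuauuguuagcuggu
miR-449c-5p: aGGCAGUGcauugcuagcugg

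Among members with a mature sequence, 11 seeds were shared by at least 2 marked genes. Both mature RNAs of a hairpin were counted, so the pair Mir7-2 and Mir7b and the pair Mir208a and Mir208b enter with both. Of the families described below, the Mir124 genes, miR-375-3p and miR-34c-5p are named only.

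The peak lists of the replicates differed in size, with 62896 autosomal peaks in replicate 1 and 97283 in replicate 2. The number of reads behind them is unknown, so an absent peak can also mean too few reads. The windows at the starts of Pou5f1, Nanog and Sox2, which encode the core pluripotency factors, had 0 bp covered in either replicate. The same held for all 14 genes of the Mir290 to Mir295 and Mir302 to Mir367 clusters, the miRNAs that mouse embryonic stem cells are known for. The mark does not measure RNA, so whether these genes were transcribed was not tested. Absence of a peak was the common state, found for 1780 of the 2051 members. Among miRNAs of differentiated cells, Mir122, Mir142, Mir126a, Mir143 and Mir145a also had no peak. Of the neuronal and muscle ones, Mir124a-2, Mir124a-3 and Mir1a-1 were marked, while Mir124a-1, Mir1a-2, Mir133a-1 and Mir133a-2 had no peak. These windows therefore cannot check the cell type label.

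H3K27me3 was called at 194 of the 2051 miRNA genes (9.46%, exact 95% interval 8.23 to 10.8). The same rule marked 16.0% of all autosomal genes and 26.8% of protein-coding ones (5579 of 20807). Other classes of short non-coding RNA genes had lower shares, with 25 of 1442 small nucleolar RNA genes (1.73%) and 41 of 1292 small nuclear RNA genes (3.17%), and long intergenic non-coding RNA genes had 628 of 5209 (12.1%). These shares were not tested against each other, because genes of a cluster share their chromatin, and the intervals cover counting error only. The members fell into 1698 loci when those within 10 kb were joined, and 180 loci had a marked member. All 19 autosomes held marked members, from 4.11% of those on chromosome 12 to 17.5% of those on chromosome 11.

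The replicates called most of the same miRNA genes. Replicate 1 had a peak in the window of 213 members and replicate 2 in that of 252, so the 194 members called by both made up 91.08% of the former and 76.98% of the latter. A further 19 members had a peak in replicate 1 alone and 58 in replicate 2 alone, together 3.754% of members, where 5.15% of all autosomal genes had a peak in 1 replicate alone. The remaining 1780 had none. In members marked in both replicates the covered part of the window had a median of 1124.5 bp and 1149.5 bp (replicates 1 and 2), near the 1261 bp and 1209 bp of marked protein-coding genes. Members with a peak in 1 replicate alone had medians of 288 bp and 319.5 bp. The authors' signal value of the highest peak in the window, which ranks peaks within a list, had a median of 6.028 and 6.651 in marked members, and that of all autosomal peaks was 4.658 and 4.317.

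A peak in the window did not always lie over the hairpin. In 95 of the 194 marked members the hairpin itself overlapped a peak in both replicates, and in 99 it did not. The whole window was covered in both replicates in 14 members (0.6826%, where 0.875% of all autosomal genes were covered whole), 7 inside and 7 outside protein-coding genes. They include Mir10a, Mir10b, Mir196a-2, Mir196b, Mir615, Mir375, Mir129-2 and Mir124a-2. At the other end, in 14 marked members the peaks of the replicates shared no base of the window, so each replicate had a peak but not at the same place. Mir26a-1 and Mir338 are among these.

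At the edge of the rule, Mir3073a was just inside, with 359 bp covered in replicate 1 and 21 bp in replicate 2. Next came Mir7235 (621 bp and 40 bp), Mir7020 (480 bp and 80 bp), Gm25033 (112 bp and 296 bp) and Gm28033 (112 bp and 435 bp). Just outside were Mir3083, Gm27552, Gm44313, Gm27920 and Gm28017, with no peak in the window and the nearest base common to the replicates at 1044, 1058, 1101, 1137 and 1153 bp. The inside members were taken by fewest covered bases and the outside ones by distance to a common base, so the sides are on unlike measures. Gm25033, although inside, lay 3190 bp from the nearest common base. Members with a peak in 1 replicate alone were not taken for this edge.

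**Figure D1:**
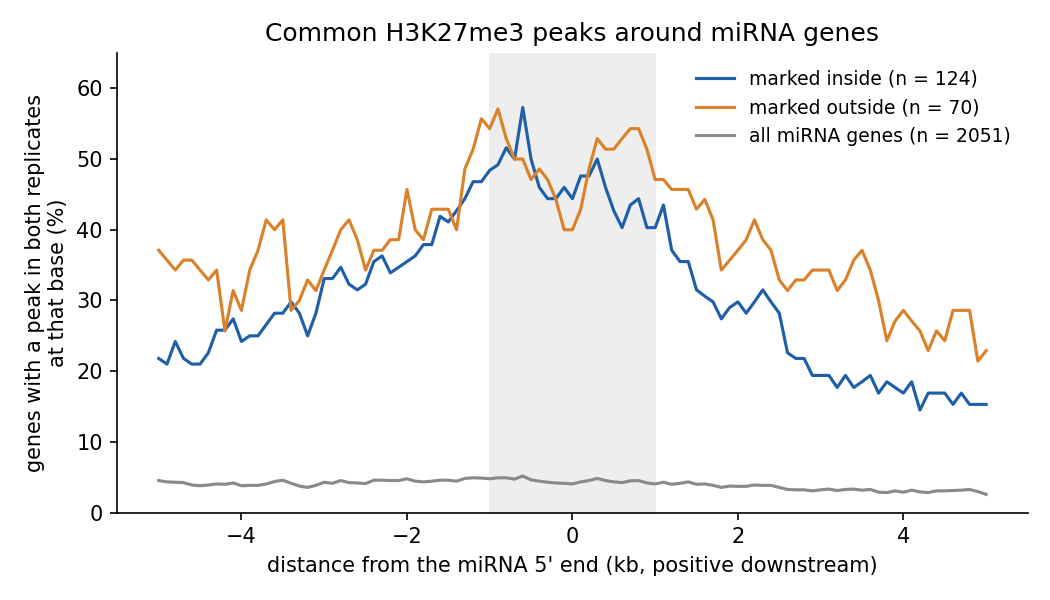
Share of miRNA genes (%, vertical axis) with a peak in both replicates at each base, against distance from the annotated 5' end in kb (positive downstream), for 124 marked genes inside and 70 outside protein-coding genes and for all 2051. The shaded band is the window of the rule, so the height inside it is set by the choice of genes. At 5 kb upstream the shares were 21.8% inside and 37.1% outside, and at 5 kb downstream 15.3% and 22.9%.

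MiRNA genes inside and outside protein-coding genes were marked at similar shares. Of 1215 members wholly within a protein-coding gene on either strand, 124 were marked (10.2%, exact 95% interval 8.56 to 12.0), and of 836 others 70 were (8.37%, interval 6.59 to 10.5). The intervals overlap, and the difference was not tested. Within hosts the strand made little difference, with 91 of 921 marked on the strand of a host (9.88%) and 33 of 294 on the opposite strand only (11.2%). Intronic members were marked at 76 of 887 (8.57%), those in coding exons at 28 of 179 (15.6%), those in untranslated regions at 15 of 98 (15.3%) and those in non-coding exons at 5 of 51 (9.80%). The marked regions around outside members were longer. When bases covered in both replicates were joined across gaps of up to 3 kb into domains, the domain over the window had a median length of 7189 bp outside and 4173.5 bp inside, counting a window with no common base as 0.

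The state of the host's own start went with the state of the miRNA. Where the start of a host was marked, 102 of 500 members were marked (20.4%, exact 95% interval 17.0 to 24.2), and where it was not, 22 of 715 (3.08%, interval 1.94 to 4.62). A hairpin close to the host's start shares its window, so members over 5 kb from it were also counted alone. Of these, 47 of 428 with a marked host start were marked (11.0%, interval 8.18 to 14.3), and 16 of 515 with an unmarked one (3.11%, interval 1.79 to 5.0). The 22 marked members in hosts with an unmarked start include Mir34b and Mir34c in an intron of Btg4, Mir146b in Mfsd13a, Mir499 in the myosin gene Myh7b and Mir1904 in the phosphodiesterase gene Pde4d. A host is not always the gene with the nearest start. The nearest coding start to Mir34c and Mir34b was that of 4833427G06Rik, which was marked and lay 1032 bp and 1567 bp away. For Mir146b it was the unmarked Mfsd13a start, 1641 bp away. Mir1904 lay 1453861 bp from the Pde4d start, and its window was covered over 1422 bp and 1280 bp in replicates 1 and 2.

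The share of marked members fell with distance to the nearest protein-coding start, inside and outside genes. Within 1 kb of the nearest such start 46 of 155 members were marked (29.7%), between 1 and 5 kb 49 of 255 (19.2%), between 5 and 50 kb 73 of 842 (8.67%), and beyond 50 kb 26 of 799 (3.25%). The share in the nearest class lay close to the 26.8% of protein-coding genes themselves. Marked members inside genes had a median distance of 3295.5 bp and unmarked ones of 20724 bp. For members outside genes these were 14321 bp and 64596.5 bp.

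**Figure D2:**
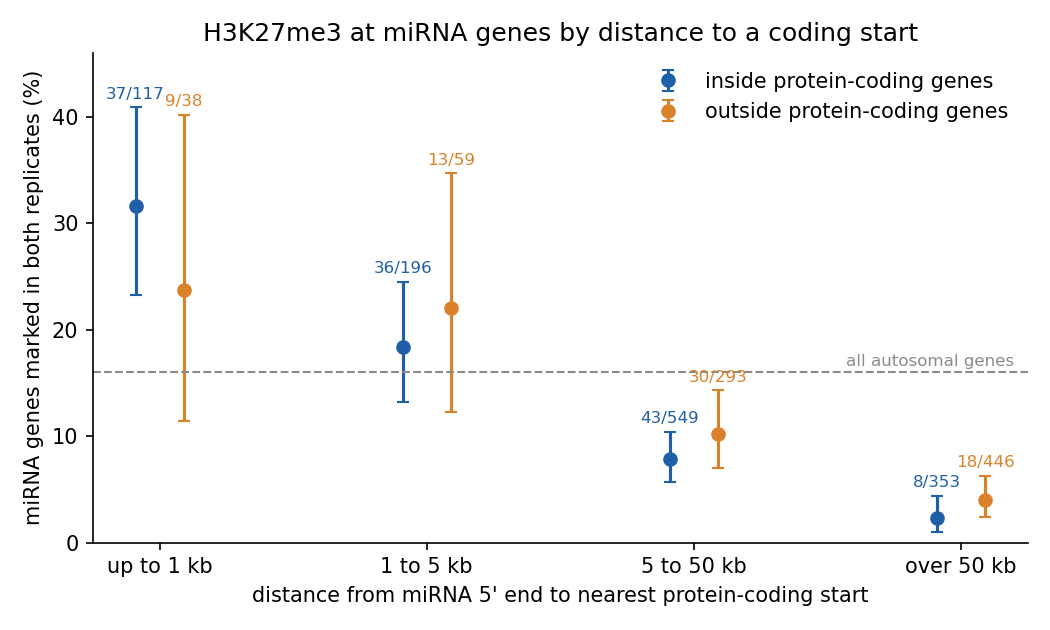
Share of miRNA genes marked in both replicates (%, vertical axis) by distance from the miRNA 5' end to the nearest protein-coding start, inside (blue) and outside (orange) protein-coding genes. Bars are exact 95% intervals, labels are marked over all members, and the dashed line is the 16.0% of all autosomal genes. Both series fall with distance, from 31.6% to 2.27% inside and from 23.7% to 4.04% outside.

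For many marked members, no protein-coding start base lay within the joined domain. A protein-coding start lay in the same domain for 76 of the 194, and for 104 others the domain held none, 62 of them inside and 42 outside protein-coding genes. Such a start can still lie just beyond the domain's edge: it was within 1 kb of the 5' end for 11 of the 104, among them Mir8109 (19 bp from the Neto2 start) and Mir8101 (16 bp from that of Hdac5), and over 5 kb away for 78. The remaining 14 had no common base. Starts of other kinds of gene were not counted in these domains. Such a start lay within 1 kb for 21 of the 70 marked members outside protein-coding genes. Among outside members within a long non-coding RNA gene on the same strand, 11 of 28 were marked where the start of that gene was marked (39.3%, exact 95% interval 21.5 to 59.4), and 0 of 101 where it was not (interval 0 to 3.59). Mir137, Mir124a-2 and Mir129-2 are examples of the former. Hairpins close to the start of a long non-coding host were not counted apart, so some windows can include that start. Several members can also lie in the same host, such as Mir132 and Mir212 in 1700016P03Rik or Mir17 and its neighbours in Mir17hg. The intervals treat them as separate, which they are not.

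Base composition differed between marked and unmarked members. Around the 5' end (500 bp to either side), the median ratio of observed to expected CpG was 0.3554 in marked members and 0.2222 in the others, and the median GC content was 55.74% and 45.55%. With the members ordered by that ratio and cut into 3 groups of 683 or 684 genes, 3.51% were marked in the low group, 7.03% in the next and 17.8% in the high group. The middle 50% of marked members spanned ratios of 0.2382 to 0.6636 and that of unmarked ones 0.1473 to 0.3143, so the ranges overlap. CpG-rich sequence is also common near protein-coding starts, and the contributions of distance and of composition were not tested apart.

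Families were taken from the number in the symbol. Of 860 families, 114 had a marked gene. Only 85 families have at least 2 genes. Of these 85, 10 had at least 2 marked: Mir196, Mir7, Mir10, Mir124, Mir129, Mir193, Mir208, Mir219, Mir34 and Mir6973. In 7 of the 10 the marked copies lay in separate loci over 10 kb apart. In the other 3, Mir129, Mir219 and Mir34, they lay in a single locus and share their chromatin. Mir208a and Mir208b count as separate loci, but both lie on chromosome 14, in Myh6 and Myh7. Their domains, chr14:54943611-54954318 and chr14:54958452-54985352, lie close together, so these copies need not be independent. Mir129b and Mir219b are transcribed from the opposite strand over Mir129-2 and Mir219a-2, and a peak has no strand, so those pairs cannot be told apart. Every copy was marked in Mir196, Mir10, Mir193, Mir208 and Mir6973.

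**Figure D3:**
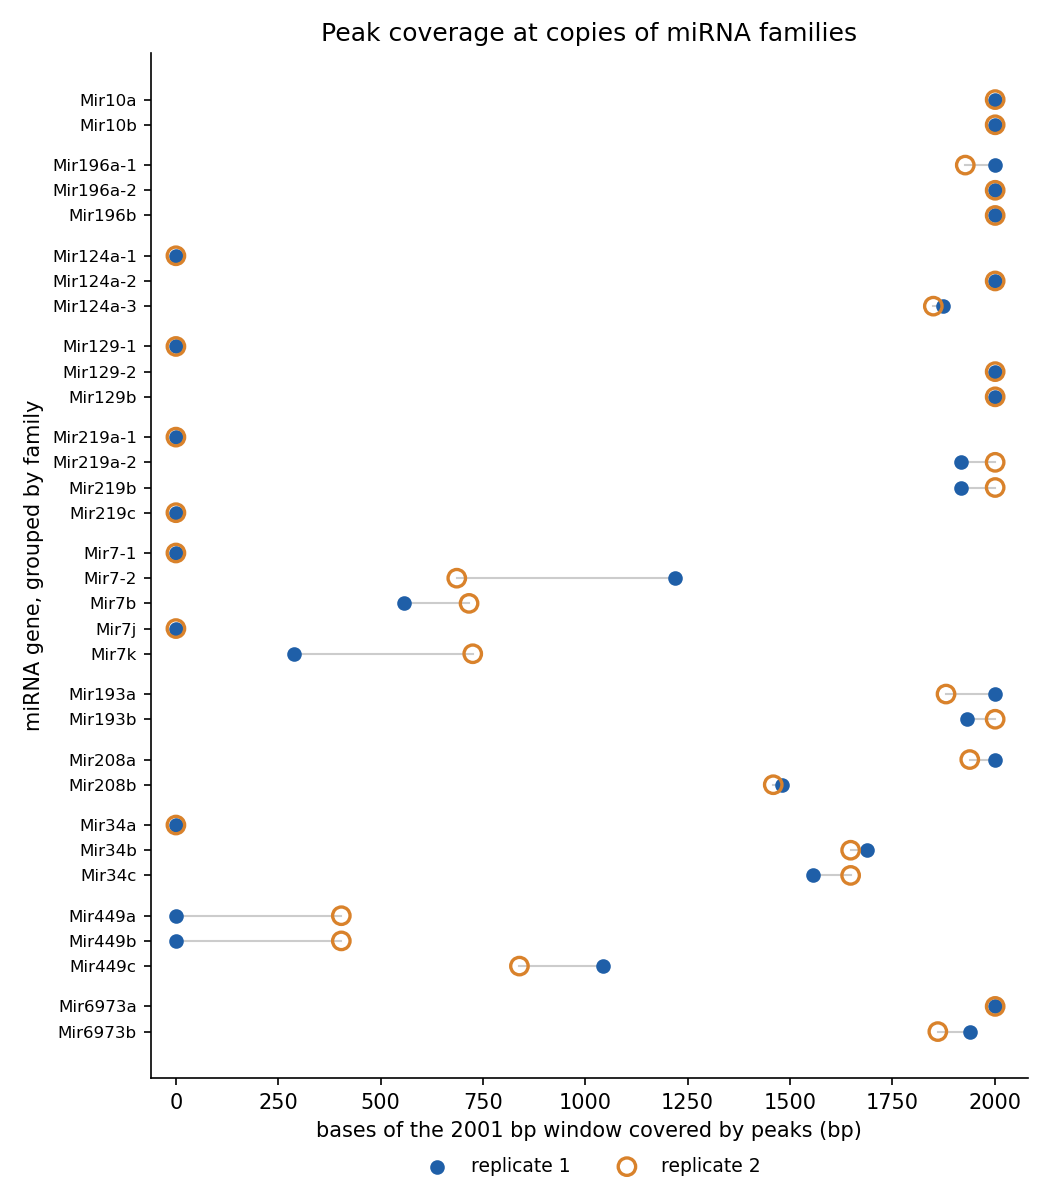
Bases of the 2001 bp window covered by peaks (bp, horizontal axis) in replicate 1 (filled) and replicate 2 (open) for each gene of the 10 families with at least 2 marked genes and of Mir449. Copies in the HOX clusters sit at or near 2001 bp, while Mir124a-1, Mir129-1, Mir219a-1, Mir7-1 and Mir34a sit at 0 bp in both replicates.

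The HOX clusters, which pattern the body axis, hold miRNAs that are known to repress HOX messages. All 6 of their listed members were marked, beside 9.46% of all miRNA genes and 16.0% of all autosomal genes. Mir10a (chr11:96317165-96317274, outside the annotated coding genes and 1102 bp from the Hoxb4 start) was covered over 2001 bp in both replicates, with signal values of 17.5 and 17.1. Mir10b (chr2:74726070-74726137, in an intron of Hoxd3 and Hoxd4) was covered over 2001 bp in both, with 15.1 and 15.6. Their mature RNAs carry the same seed, as printed above. Mir196a-1 in the Hoxb cluster was covered over 2001 bp in replicate 1 and 1928 bp in replicate 2. Mir196a-2 in the Hoxc cluster, Mir196b within Hoxa9 and Mir615 in an intron of Hoxc5 were covered whole in both. These 6 windows lay in the 4 domains of 127.4 to 172.0 kb over the HOX clusters, so they are not separate instances of the mark.

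Of 31 genes in the list of neural miRNAs, 14 were marked (45.2%, exact 95% interval 27.3 to 64.0), in 11 of 27 loci. Over all miRNA genes the share was 9.46% and over all autosomal genes 16.0%. The list was chosen with earlier results of these data known. Leaving out Mir7j and Mir7k, which are let-7 genes by their mature names, 13 of 29 were marked (44.8%, interval 26.4 to 64.3). The 14 had a median of 89.6 in mean percentile rank of signal, and all marked miRNA genes, which include them, had 80.16. Mir153 had a peak in replicate 2 alone (1314 bp), Mir125b-1 in replicate 1 alone (404 bp), and 15 had none, among them Mir125a, Mir128-1 and Mir135a-1. MiR-124, the most abundant miRNA of neurons, has 3 genes. Mir124a-3 (chr2:180894040-180894107) was covered over 1873 bp and 1850 bp with signal values of 14.5 and 15.0. Mir124a-2 (chr3:17795662-17795770, in the long non-coding gene Mir124-2hg) was covered over 2001 bp in both replicates with lower signal values, 6.95 and 8.39. Mir124a-1 (chr14:64590657-64590741) had 0 bp in both, and the nearest common base was 2705 bp away. The start of its long non-coding host, Mir124a-1hg, was marked, and 1930 common bases lay within 5 kb of the hairpin's 5' end. The window at this hairpin thus does not describe the start of its host.

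Several mature RNAs come from a marked and an unmarked gene. Among members whose mature sequence was found, this held for 8: miR-128-3p, miR-129-5p, miR-199a-3p, miR-218-5p, miR-219a-5p, miR-26a-5p, miR-7a-5p and miR-8099. Mir129-2 (chr2:94241364-94241453, in the long non-coding gene Mir670hg) was covered over 2001 bp in both replicates, with signal values of 14.8 and 13.9. Mir129-1 (chr6:29022619-29022691) makes the same miR-129-5p and had 0 bp in both, with the nearest common base at 8861 bp. It lies in the long non-coding gene Gm3294, whose start was marked. To show how the surroundings of such copies differ, the 150 bases upstream of each hairpin follow, from RefSeq GRCm38.p6, 5' to 3' on the strand of the miRNA, with each CpG in capitals. The Mir129-2 sequence is chr2:94241454-94241603 on the minus strand, and the Mir129-1 sequence is chr6:29022469-29022618 on the plus strand.

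Mir129-2: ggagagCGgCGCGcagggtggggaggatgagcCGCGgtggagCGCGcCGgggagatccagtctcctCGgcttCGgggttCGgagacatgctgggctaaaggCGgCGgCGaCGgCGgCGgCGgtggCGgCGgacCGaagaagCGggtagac
Mir129-1: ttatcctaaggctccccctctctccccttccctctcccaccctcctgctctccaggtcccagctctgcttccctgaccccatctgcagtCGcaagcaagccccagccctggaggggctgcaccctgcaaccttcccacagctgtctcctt

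The marked copy has 22 CpGs in these 150 bases and the unmarked copy 1. The pair of miR-219a genes, known from oligodendrocytes, does not show this. Mir219a-2 (chr2:29845631-29845727) was covered over 1918 bp and 2001 bp with signal values of 7.95 and 7.29. Mir219a-1 (chr17:34024983-34025092, 412 bp from the start of Ring1, which encodes a Polycomb protein) had 0 bp in both replicates. Its nearest common base lay 1173 bp away, just beyond the window. The upstream sequences, chr2:29845728-29845877 and chr17:34025093-34025242, are both on the minus strand.

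Mir219a-2: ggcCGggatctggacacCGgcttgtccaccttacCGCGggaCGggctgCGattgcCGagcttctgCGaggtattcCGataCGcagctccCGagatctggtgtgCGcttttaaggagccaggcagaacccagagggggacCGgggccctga
Mir219a-1: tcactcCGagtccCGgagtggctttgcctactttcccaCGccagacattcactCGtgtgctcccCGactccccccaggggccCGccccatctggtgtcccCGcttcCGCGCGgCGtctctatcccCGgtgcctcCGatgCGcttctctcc

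Here the marked copy has 13 CpGs and the unmarked copy 14. For Mir7-2 (chr7:78888277-78888373) and Mir7-1 (chr13:58392779-58392886), which both make miR-7a-5p, there are 4 and 0. Mir7-2 was covered over 1220 bp and 686 bp, and Mir7-1, in an intron of the RNA-binding protein gene Hnrnpk, had 0 bp in both, with the nearest common base at 34579 bp. Mir7b was marked over shorter stretches of 558 bp and 716 bp. Mir7k and Mir7j bear the symbol of this family, but their mature RNAs are named let-7k and let-7j in RefSeq. Mir7k had 288 bp and 725 bp covered and Mir7j had 0 bp in both. Counted by mature name, the family has 3 genes in place of 5, of which Mir7-2 and Mir7b were marked.

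Mir132 and Mir212 lie side by side on chromosome 11 (chr11:75173682-75173747 and chr11:75173388-75173478) and are induced by neuronal activity. Their windows overlap. Mir132 was covered over 1301 bp and 1339 bp and Mir212 over 1307 bp and 1458 bp, with signal values of 13.7 and 14.7 for each. Mir137, which acts in neural differentiation, was covered over 1576 bp and 1668 bp in its long non-coding host Gm26871, with its nearest coding start, that of Dpyd, 128272 bp away. Mir128-2 in Arpp21 had 508 bp and 692 bp covered, while Mir128-1 in R3hdm1 had none. Mir218-2 in Slit3 had 266 bp and 560 bp, and Mir218-1 in Slit2 had none, although both host starts were marked. The last 2 pairs show partial coverage in the marked copy.

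Muscle miRNAs were marked at 4 of 11 genes (36.4%, exact 95% interval 10.9 to 69.2), beside 9.46% of all miRNA genes and 16.0% of all autosomal genes. The 3 that lie in myosin heavy chain genes, whose products drive contraction, were all marked. Mir208a (chr14:54949060-54949142, in Myh6) was covered over 2001 bp and 1939 bp, and Mir208b (chr14:54975700-54975776, in Myh7) over 1480 bp and 1459 bp. Mir499 in Myh7b had less, 636 bp and 452 bp, with signal values of 4.93 and 4.05. Mir1a-1 was covered over 1862 bp and 1657 bp, but its neighbour Mir133a-2 had 0 bp in both, with the nearest common base 7573 bp away. Mir1a-2, Mir133a-1, Mir133b, Mir133c, Mir1b and Mir206 also had no peak.

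The miR-34 and miR-449 genes share the seed GGCAGUG and are known as p53 targets and as miRNAs of multiciliated cells. Of 6 genes, 3 were marked, beside 9.46% of all miRNA genes and 16.0% of all autosomal genes. Mir449c (chr13:113035983-113036091, in an intron of Cdc20b) was covered over 1044 bp and 839 bp with signal values of 13.4 and 18.2. Its neighbours Mir449a and Mir449b had 0 bp in replicate 1 and 404 bp in replicate 2. They lie 2423 bp and 2308 bp from the marked Cdc20b start, and Mir449c 872 bp, so the hairpin nearest the start was the marked one. Mir34b and Mir34c were covered over 1688 bp and 1556 bp in replicate 1 and over 1648 bp each in replicate 2. The marked start of 4833427G06Rik lay 1567 bp and 1032 bp from them. Mir34a (chr4:150068454-150068555), the best known p53 target of the family, had 0 bp in both, with the nearest common base at 9160 bp.

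Mir193a and Mir193b, the latter known from brown fat, lay far from coding starts, at 120757 bp and 193042 bp, and on different chromosomes (chr11:79711969-79712034 and chr16:13449523-13449601). Mir193a was covered over 2001 bp and 1881 bp with signal values of 13.4 and 11.3, and Mir193b over 1932 bp and 2001 bp with 8.49 and 11.0. Their domains of 6.1 and 9.2 kb held no protein-coding start. Mir6973a in Ltb and Mir6973b in Gfra4 were covered over at least 1861 bp in either replicate, but they share a number and not a mature sequence.

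**Figure D4:**
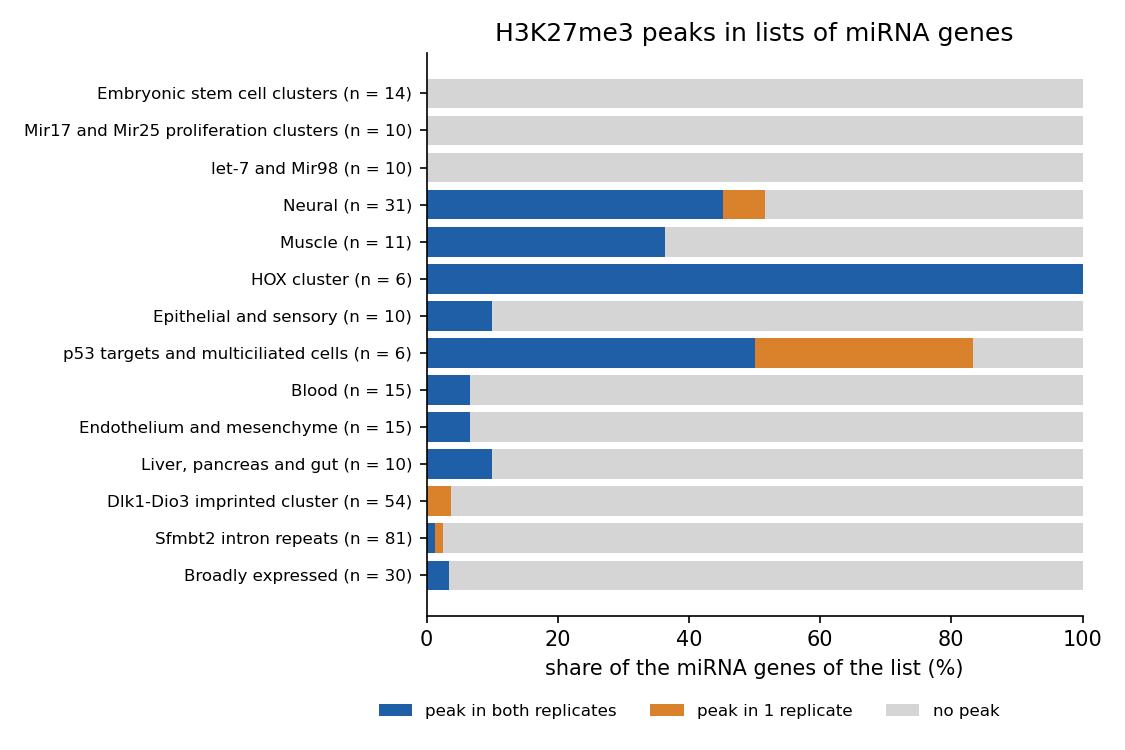
Share of the genes of each of the 14 lists of miRNAs (%, horizontal axis) with a peak in both replicates, in 1 replicate or in none. The HOX list is marked at 6 of 6 genes and the neural list at 14 of 31, while the embryonic stem cell, Mir17 and Mir25, let-7 and Dlk1-Dio3 lists have no gene marked in both replicates. Lists are by symbol, so Mir7k (mature name let-7k) counts in the neural list. Over all miRNA genes 9.46% were marked.

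Other lists held few or no marked genes. The Mir17 and Mir25 clusters, which promote proliferation, had 0 of 10 marked (exact 95% interval 0 to 30.8), and the let-7 genes, which promote differentiation, had 0 of 10 by their symbols, with no peak in either replicate. Counting also Mir7j and Mir7k, whose mature names are let-7j and let-7k, 1 of 12 was marked (8.33%, exact 95% interval 0.211 to 38.5), namely Mir7k. Both lists are small, and a share up to the upper bound is within counting error. Among epithelial and sensory miRNAs 1 of 10 was marked, Mir203, a miRNA of the epidermis (chr12:112130880-112130955), over 1873 bp and 1662 bp with signal values of 12.3 and 12.7. Mir141, Mir182, Mir183 and Mir200a had no peak. Among liver, pancreas and gut miRNAs it was Mir375, known from pancreatic islets (chr1:74900658-74900721), over 2001 bp in both, with 16.4 and 17.9 and a mean percentile rank of 99.9. Mir122, Mir192 and Mir216a had none.

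Blood miRNAs had 1 of 15 marked, Mir146b (700 bp and 724 bp), a regulator of inflammatory signalling, and Mir142, Mir144, Mir150 and Mir155 had no peak. Endothelial and mesenchymal miRNAs had 1 of 15, Mir199b in Dnm1 (1298 bp and 1512 bp), while Mir126a, Mir143 and Mir145a had none. Broadly expressed miRNAs had 1 of 30. This was Mir26a-1, with 452 bp and 193 bp that shared no base. Over all 14 lists 33 of 303 genes were marked (10.9%), and of the 778 other members whose symbols start with Mir, 93 were (12.0%). The sum over lists depends on the large clusters of repeated or imprinted miRNAs: without the Dlk1-Dio3 and Sfmbt2 lists, 32 of 168 genes were marked (19.0%, exact 95% interval 13.4 to 25.8), beside 16.0% of all autosomal genes. Of the 970 members with other symbols, 68 were marked (7.01%).

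The 54 members taken for the imprinted Dlk1-Dio3 cluster, in 4 loci, had none marked (exact 95% interval 0 to 6.60), and Mir341 and Mir1188 had 223 bp each in replicate 2 alone. Mir1247, outside that list and 939 bp from the Dio3 start, was covered over 1276 bp and 1025 bp with signal values of 15.3 and 13.2. The repeated miRNAs known from an intron of Sfmbt2, with their copies elsewhere, had 1 of 81 marked, Mir466j (696 bp and 186 bp, with a mean percentile rank of signal of 4.5). These genes are near-identical repeats, and the authors' treatment of reads that map to several places is not stated in the labels or headers, so an absent peak there is uncertain.

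Among the members reported by name, the highest signal ranks outside protein-coding genes belonged to Mir10a, Mir375, Mir124a-3, Mir7216, Mir129-2, Mir129b, Mir1247, Mir132, Mir212 and Gm44463, the last 3415 bp from the Hoxd9 start. Mir7216 (chr17:27328385-27328460) was covered over 1950 bp and 1891 bp with signal values of 13.8 and 17.5, and Mir7214 lay in the same domain of 24.3 kb. No protein-coding start lay in that domain. Mir7216 and Mir7214 lie in the long non-coding genes Gm10505 and Gm49793, whose starts were marked. Inside protein-coding genes the highest ranks were Mir6974 in Lta, Gm27516 in Foxf2, Gm27530 in Foxf1, Mir6973a in Ltb, Mir10b, Mir449c, Mir6973b in Gfra4, Mir196a-2, Mir196b and Mir1199. Lta and Ltb encode lymphotoxins, and Foxf1 and Foxf2 are transcription factors of mesoderm. The nearest coding start was marked for each of these 10 genes, and it was for 6 of the 10 genes outside.

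Long domains held 26 marked members in 20 domains of at least 20 kb. Beside the HOX domains, they include Mir375 in one of 36.3 kb, Gm22646 (31.3 kb), Gm26474 (30.8 kb), Gm25239 in Sox1 (29.8 kb), Mir1247 (27.9 kb), Gm24513 (27.3 kb), Mir208b (26.9 kb) and Mir483 in the growth factor gene Igf2 (23.6 kb). Mir6974 and Mir6973a shared a domain of 24.1 kb on chromosome 17. Within 5 kb of the 5' end, the members reported by name with the most bases common to the replicates were Mir615 (9777 bp), Mir10a (9536 bp), Mir196a-2 (9483 bp), Gm25837 in Grin2c (9415 bp), Mir10b (9395 bp), Mir6974 (9218 bp), Mir196b (9208 bp), Mir196a-1 (9207 bp), Gm27530 (9155 bp) and Gm44319 (9092 bp). Gm44319 stands apart from the others of this set by its distance to the nearest coding start, 275056 bp.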

How the data were processed

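H3K27me3 peak lists of 2 biological replicates of 1 group were used. Per the file headers, the lists on mm10 came from 2 processing runs, and the pseudoreplicated list of each replicate, from the second run, was the main one. Neither the labels nor the headers give the aligner, the caller and its thresholds, or how a control was used. Signal values are the authors' own, as deposited, on a scale that no source states, and they served to rank and describe peaks within a list. Significance is deposited by the authors as −log10 p and −log10 q, and the latter entered 1 alternative. The replicated lists, made from both libraries, entered alternatives only. The mm9 list, the pseudoreplicated and relaxed lists of both libraries together and any control were not used here. The number of columns of other samples was 0. Read numbers are not in the peak lists, so the depth of each library is unknown and no read-based floor or interval was possible.

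Genes came from GENCODE mouse release 21. A member was inside when it lay wholly within a protein-coding gene, and hosts, starts and distances were taken from gene ends. Ranks are percentiles among the autosomal peaks of the same list, averaged over replicates. Common bases within 3 kb were joined into domains, and members within 10 kb into loci. CpG ratio and GC content were counted over 1001 bp. Shares have exact (Clopper-Pearson) 95% intervals over genes, and no test was made. The calling code was checked on simulated data.

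Named are members of the 10 families with several marked genes, members of 14 lists (up to 4 marked by rank and up to 4 without a peak), the 10 highest ranks inside and outside, the 10 with the most common bases within 5 kb, 5 on each side of the edge of the rule, and members in domains of at least 20 kb. Mir26a-1, Mir338, Mir1904, Mir1247 and the genes named as examples of hosts with an unmarked start were chosen after their values were seen. Members and lists were chosen with earlier results of these data known. Some genes taken by this rule are not reported here.

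The alternatives tried were a −log10 q of at least 2, half-widths of 0.5 kb and 2.5 kb, the relaxed and the replicated lists, 50% of the window covered, a peak over the hairpin, each replicate left out, symbols starting with Mir alone, 1 member per locus, hosts on the same strand, and families by distance or by seed. Counting let-7j and let-7k with let-7, and summing the lists without the Dlk1-Dio3 and Sfmbt2 ones, were chosen after seeing the data, as were Mir8109 and Mir8101 as examples. Tools were pandas 2.3.3 and NumPy 2.4.6 under Python 3.11.15, SciPy 1.17.1 for intervals, and Matplotlib 3.10.9 for plots.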

Additional observations from a re-analysis of the deposited data

How the results depend on the processing

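The number of families with several marked genes stayed within 1.5 times 10 under all 15 alternatives, and 11 of the 13 alternatives kept the number marked inside protein-coding genes within 1.5 times 124. Not all of the 15 are separate checks. Families hold only symbols starting with Mir, so restricting to those symbols could not change the number of families. Taking 1 member per locus and taking families by distance both gave 7. The same 10 families were kept with 0.5 kb on each side, with a −log10 q of at least 2 and with the second run's replicated list. Either replicate alone keeps them by design, because the main rule needs a peak in both. Mir7 was lost, leaving 9, under the rule of 50% coverage and under that of a peak over the hairpin. Marked members numbered 306 with the first run's relaxed lists (125 of them outside), 310 with its replicated list (128 outside) and 294 with the second run's replicated list (122 outside). They numbered 100 with 50% of the window covered (62 inside, 38 outside), 95 with a peak over the hairpin (62 inside, 33 outside) and 126 among symbols starting with Mir (34 outside). With 2.5 kb on each side 106 were marked outside. Without a replicate the median of covered bases, 1137 bp over both, was 864 to 1037 bp, and marked members numbered 213 to 252. That median was 743.5 bp with 0.5 kb, 1600.2 bp with 2.5 kb, 788 bp with the relaxed lists, 1007 bp and 1003 bp with the replicated lists of the first and the second run, 1649.2 bp with 50% covered, 1637 bp over the hairpin, 1226 bp for symbols starting with Mir and 1110.8 bp with 1 member per locus. With half-widths of 0.5 kb and 2.5 kb, 154 and 276 members were marked. The number called thus varied with the peak list, the width of the window and the overlap required. The cause of the difference between lists was not tested. Depth is unknown, and a short peak in 1 replicate alone may be missing from the other for lack of reads. No paired analysis was possible because the series has a single group.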
